A study of Mus musculus with 16 samples.

Results

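The cell cycle and replication genes examined in mouse lung were 35 genes taken by name for their function, measured by the 53 array probes whose gene name in the files is one of these symbols or an older synonym. The arrays hold 27736 gene names on 41174 probes in all. Of the 35 genes, 21 had 1 probe, 10 had 2 and 4 had 3. The brightest probe stood for a gene. A gene entered the tests if some group had all 4 of its arrays with this probe well above background in Cy5, the dye of the mouse's own RNA. That held for 34 of the 35 members and for 21269 gene names in all. In 31 of the 34 the brightest probe was well above background on all 16 arrays. Cdc6, Cdk1 and Kif11 passed with fewer arrays. Ccne2, a cyclin of entry into S phase, was not well above background on any array with either of its probes, so no level is given for it.

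RNA came from the lungs of 16 A/J mice, all female and of a strain that readily forms lung tumours, with 4 mice in each of 4 groups. The NNK+SECY mice received NNK, a nitrosamine of tobacco that forms DNA adducts, as 1 intraperitoneal injection of 0.2 mL saline at 10 uM, and then selenocystine, the selenium analogue of cystine, at 15 ppm in the diet for 10 days, starting 3 days after the injection. The NNK mice received the injection alone, and both NNK groups were killed 13 days after it. The SECY mice received the selenocystine diet alone, and the Untreated mice neither. All were kept on the AIN-76 diet, which holds 0.35 ppm selenium. The sources used here give no ages and name no saline injection of the mice without NNK. On every array Cy5 (red) held the RNA of 1 mouse and Cy3 (green) held an equal mix of the 4 Untreated lungs, so that the Untreated mice are also part of the pool they are read against, and no dyes were swapped.

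Cells duplicate their DNA by loading a ring-shaped helicase built of Mcm proteins onto origins, opening it, and copying behind a sliding clamp that a loader, replication factor C, places on the DNA. Cyclins and their kinases then drive entry into mitosis, where the chromosomal passenger complex, of which Birc5 (survivin) and Aurkb are parts, and the spindle checkpoint control how chromosomes separate. Most cells of an adult lung do not divide, and transcripts of these genes come mainly from the few that do. In whole tissue, fewer cells of a type and less RNA per cell cannot be told apart.

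Median spot signal ranged over the 16 arrays from 71.2 to 105 in Cy5 and from 67.5 to 93.4 in Cy3, and 66.3% to 79.3% of spots were well above background in Cy5. By the slide code in the file headers, NNK and Untreated arrays of the same number shared slides 1 to 4, and NNK+SECY and SECY arrays of the same number shared slides 5 to 8. Both NNK groups were scanned on 1 day and both groups without NNK on another, so NNK and the day of the scan cannot be told apart, nor can the diet and the set of slides. Untreated 1 stood apart in these genes, and the main results set against Untreated lungs are also given without it. The mean correlation with the other arrays of the group, over all tested genes, was 0.031 for SECY 3 and 0.118 for Untreated 1, against 0.167 to 0.556 for the other 14 arrays. All 20 listed markers of alveolar type 2, alveolar type 1, club, ciliated and endothelial cells were well above background on all 16 arrays. Of the 6 thymocyte markers 4 (Dntt, Ptcra, Cd8b1 and Tcf7) were so on all 16 arrays, Rag1 on some and Rag2 on none.

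Across the 5 comparisons of group pairs, 3 of the 34 members passed the test in any: Mcm8, Rfc4 and Birc5. They were higher in NNK than in Untreated lungs by about 2-fold, Mcm8 by its brighter probe but not by its dimmer one. Birc5 was lower in NNK+SECY than in NNK lungs, a call that ended under several alternatives. The other 31 members lay between -0.13 and 0.20 on the log2 scale in NNK against Untreated lungs, and between -0.05 and 0.31 without Untreated 1, and none passed either way. Several were dim, with raw Cy5 of 46.8 to 74.6 for Cdk1, 46.8 to 77.3 for Kif11 and 59.8 to 101 for Top2a. A Ccne2 probe, well above background on no array, had 44.4 to 59.1. In such dim genes a small value does not show a steady level. With the scanner software's processed signals Top2a was at 0.36, Cdk1 at 0.295 and Kif11 at -0.14. Their main values were 0.11, 0.05 and -0.004. Mcm8, Rfc4 and Birc5 were also the members whose Cy3 signal, from the 1 pool on all arrays, moved most with the groups. This is described after their log ratios.

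These 3 genes moved together across the arrays, in the Cy3 signal of the shared pool as well as in Cy5. As background, the stretch before each RefSeq transcription start is shown, from RefSeq sequence of assembly GRCm38.p6. Any part of these stretches in the Cy5 signal of the mice was not tested. The Cy3 signal comes from the same pool of RNA on every array and does not read the single mouse. These genes are also set together because they passed in the same comparison, which by itself makes their log ratios move together. The Mcm8 stretch is 2:132816055-132816140 on the plus strand, cut to the 86 bases that lie outside the neighbouring gene Trmt6. The Rfc4 stretch is 16:23127731-23127980 on the minus strand and the Birc5 stretch 11:117848987-117849236 on the plus strand, 250 bases each. Capitals mark the letters CCAAT or their reverse complement.
Mcm8: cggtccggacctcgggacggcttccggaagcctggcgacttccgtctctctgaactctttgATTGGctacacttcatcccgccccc
Rfc4: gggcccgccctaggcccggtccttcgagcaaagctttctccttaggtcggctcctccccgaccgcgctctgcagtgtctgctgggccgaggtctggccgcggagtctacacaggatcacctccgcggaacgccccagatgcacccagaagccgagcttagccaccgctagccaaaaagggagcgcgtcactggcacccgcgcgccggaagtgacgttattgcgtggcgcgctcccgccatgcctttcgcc
Birc5: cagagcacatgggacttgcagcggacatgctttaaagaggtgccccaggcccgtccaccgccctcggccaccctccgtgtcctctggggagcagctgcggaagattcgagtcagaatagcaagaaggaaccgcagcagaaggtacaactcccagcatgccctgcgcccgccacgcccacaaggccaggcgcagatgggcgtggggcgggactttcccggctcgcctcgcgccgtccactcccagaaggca
The windows searched reach 250 bases before to 50 after the start, on both strands. Cell cycle genes are known for E2F sites near the start of replication genes and for paired CCAAT and CHR elements near the start of mitotic genes. For E2F the letters TTTCCCGC, TTTGGCGC, TTTCGCGC and TTTGCCGC were searched, for CHR the letters TTTGAA and TTCGAA, and none of these holds CCAAT or lies within it. The Mcm8 window held 1 E2F-like match after the start, outside the printed stretch, and 1 CCAAT. The Rfc4 and Birc5 windows held no exact match to any of them. Of the 30 members with a window in the table, 8 (26.7%) held an E2F-like match, namely Mcm3, Mcm5, Mcm6, Mcm7, Cdc6, Mcm8, Rfc3 and Cdk1, against 2.26% of all 32851 windows. A CHR-like match was in 15 of the 30 members, against 19.2% of all windows, and CCAAT in 23 (76.7%), against 37.4%.

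NNK against Untreated lungs asked what NNK did to these genes 13 days later. Log ratios are log2(Cy5/Cy3), normalised by loess within each array. Mcm8, a relative of the replicative helicase that acts in recombination repair, was read by 2 probes. Its brighter probe gave log ratios of 1.12, 1.54, 1.26 and 1.17 on the 4 NNK arrays, against -0.04, 0.30, 0.05 and 0.28 on the Untreated arrays. Every NNK array lay above every Untreated array. The log2 fold change was 1.13 ± 0.15 (SE, n = 4 per group), or 2.18-fold, with an adjusted p of 0.00391 in limma.

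Rfc4, a subunit of the clamp loader, had 1 probe. Its log ratios were 0.73, 1.29, 1.18 and 0.96 on the NNK arrays, against 0.21, 0.07, -0.05 and 0.13 on the Untreated arrays. The groups did not overlap. The log2 fold change was 0.95 ± 0.14, or 1.93-fold (limma, adjusted p = 0.00774). Birc5, which holds the chromosomal passenger complex at the centromere and also inhibits apoptosis, had 1 probe too. Its spot on NNK 1 was flagged as an outlier by the scanner software and dropped, which left 3 NNK arrays. They gave 1.04, 0.91 and 0.99, against 0.39, -0.18, -0.13 and -0.03 on the Untreated arrays. The groups did not overlap, and the log2 fold change was 0.97 ± 0.13, or 1.96-fold (limma, adjusted p = 0.00396). With the dropped spot kept it was 0.86.

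These 3 of 34 members passed, all higher, where 0.32% of the 21264 genes tested passed, all of them higher. The same 3 were the members whose NNK and Untreated arrays did not overlap, as was true of 4.13% of all genes tested. Within the slides that hold both groups, the NNK array minus the Untreated array was 1.16, 1.24, 1.21 and 0.89 for Mcm8 on slides 1 to 4. It was 0.52, 1.22, 1.23 and 0.84 for Rfc4, and 1.22, 1.04 and 1.03 for Birc5 on slides 2 to 4. All 11 differences were above 0, which the lack of overlap between the groups had fixed in advance. Each pair still holds 1 array from each day of scanning. Without Untreated 1 the log2 fold changes were 1.06 for Mcm8, 0.99 for Rfc4 and 1.09 for Birc5, and all 3 passed.

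**Figure D1:**
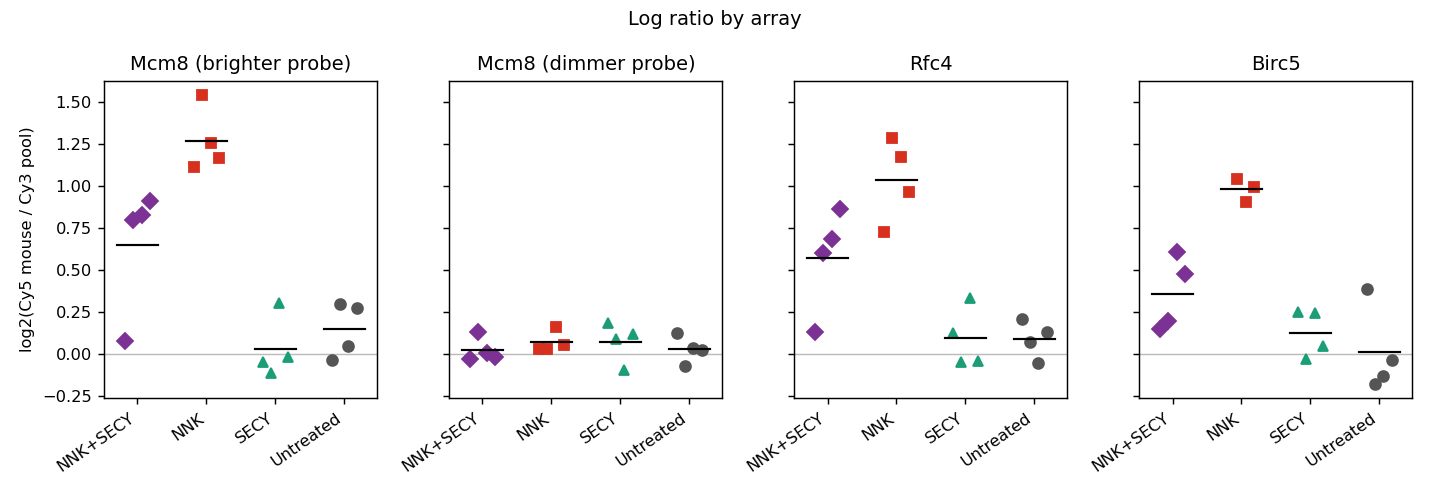
Log2(Cy5/Cy3) of the 4 probes of Mcm8, Rfc4 and Birc5 on each array, with 1 point per mouse and a bar at the mean of each group (n = 4 mice, 3 for Birc5 in NNK). The NNK arrays lie at 0.73 to 1.54 for the brighter Mcm8 probe, Rfc4 and Birc5, above all Untreated arrays, and the dimmer Mcm8 probe stays near 0.

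The second Mcm8 probe did not follow. Its log ratios were 0.03, 0.03, 0.16 and 0.05 on the NNK arrays, against 0.12, -0.07, 0.03 and 0.02 on the Untreated arrays. The groups overlapped, and the log2 fold change was 0.04 ± 0.06 (limma over probes, adjusted p = 1). This probe was well above background on all 16 arrays, but dim, with a raw Cy5 signal of 75.7 to 109. A Ccne2 probe that was well above background on no array had 44.4 to 59.1. At this level a log2 fold change near 0 does not show that Mcm8 was unchanged. The raw Cy5 signal of the brighter probe ran from 57.2 to 8190. Brighter refers to the mean over all arrays, as its lowest value lay below those of the dimmer probe. Per the files' annotation, for which the sources used here name no build, both probes were designed on the same RefSeq transcript and lie on chromosome 2, plus strand, the brighter at 2:132333468-132333527 and the dimmer at 2:132357356-132357415. The mean of both probes gave a log2 fold change of 0.58 for Mcm8 in NNK against Untreated lungs. Taken probe by probe, the 3 probes that stood for these genes passed again with the same fold changes, so only the dimmer Mcm8 probe adds a reading. The share that passed over all 30744 probes tested was 0.211%.

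The Cy3 channel held the same pool on all arrays, so its level for a gene can be read as a check on the array. For the brighter Mcm8 probe the log2 Cy3 signal after scaling was 7.48, 11.07, 11.33 and 11.41 on the NNK arrays, against 6.30, 7.04, 7.60 and 8.58 on the Untreated arrays. It was high on NNK 2, 3 and 4, while NNK 1 lay among the Untreated values. The group means were 9.60 in NNK+SECY, 10.32 in NNK, 8.97 in SECY and 7.38 in Untreated arrays. For Rfc4 they were 10.15, 11.10, 9.49 and 8.74 in the same order, and for Birc5 9.37, 10.02, 9.20 and 8.70. NNK minus Untreated in Cy3 was 2.94 ± 0.79 for Mcm8 (limma, adjusted p = 0.0416), 2.36 ± 0.50 for Rfc4 (limma, adjusted p = 0.012) and 1.31 ± 0.17 for Birc5 (limma, adjusted p = 0.000339). These 3 were the members that passed in Cy3 in that comparison, where 4.59% of genes tested did. The log ratio is Cy5 minus Cy3 on the log2 scale, and in Cy5 alone the differences were 4.07, 3.31 and 2.28.

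The largest Cy3 group mean exceeded the smallest by more than 0.5 in 7.39% of genes tested. Among the 34 members it did so in 4: Mcm8 (2.94), Rfc4 (2.36), Birc5 (1.31) and Ccna2 (0.55). Over single arrays the Cy3 signal spanned 5.11 for Mcm8, 3.59 for Rfc4 and 1.60 for Birc5, more than in 99.9%, 99.8% and 98.2% of genes tested. Across the arrays, as a description, Cy3 followed Cy5 with r = 0.98 for Mcm8 and 0.99 for Rfc4 (n = 16 arrays) and 0.97 for Birc5 (n = 15), and both channels of a spot share the spot. Between genes, the Cy3 signals correlated at r = 0.96 for Mcm8 with Rfc4, 0.96 for Mcm8 with Birc5 and 0.96 for Rfc4 with Birc5. The Cy3 signal of the dimmer Mcm8 probe spanned only from 6.36 to 6.70. Whether what moved the Cy3 signal also moved the log ratio was not tested. Within slides 1 to 4, NNK minus Untreated in Cy3 was 1.18, 4.03, 3.725 and 2.83 for Mcm8. It was 0.81, 2.87, 2.87 and 2.90 for Rfc4, and 1.255, 1.49 and 1.15 for Birc5 on slides 2 to 4. Within slides 5 to 8, NNK+SECY minus SECY in Cy3 was -0.63, 0.945, 0.93 and 1.27 for Mcm8. It was -0.38, 0.73, 0.85 and 1.44 for Rfc4 and 0.02, 0.12, 0.35 and 0.20 for Birc5. Leaving out every gene with a Cy3 difference over 0.5, chosen as a restriction after seeing the data, removes all 3 genes and leaves 0 members that passed.

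**Figure D2:**
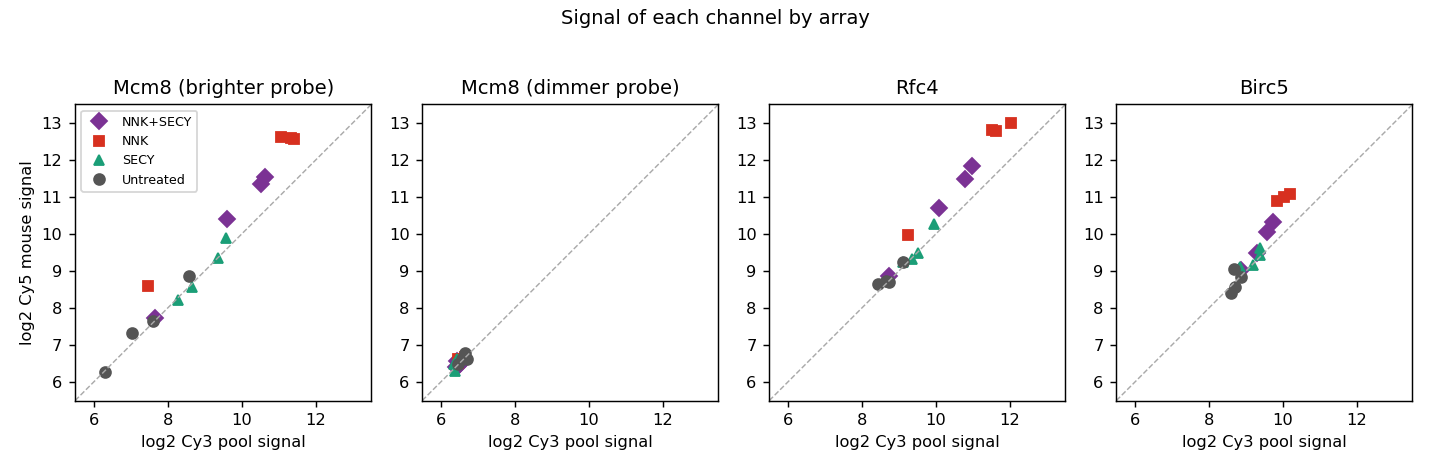
Log2 Cy5 signal of the mouse against log2 Cy3 signal of the pool for the same 4 probes, 1 point per array, with the line of equal signals dashed. For the brighter Mcm8 probe, Rfc4 and Birc5 both channels rise together over the arrays, and NNK arrays lie above the line, while the dimmer Mcm8 probe stays at 1 place.

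**Figure D3:**
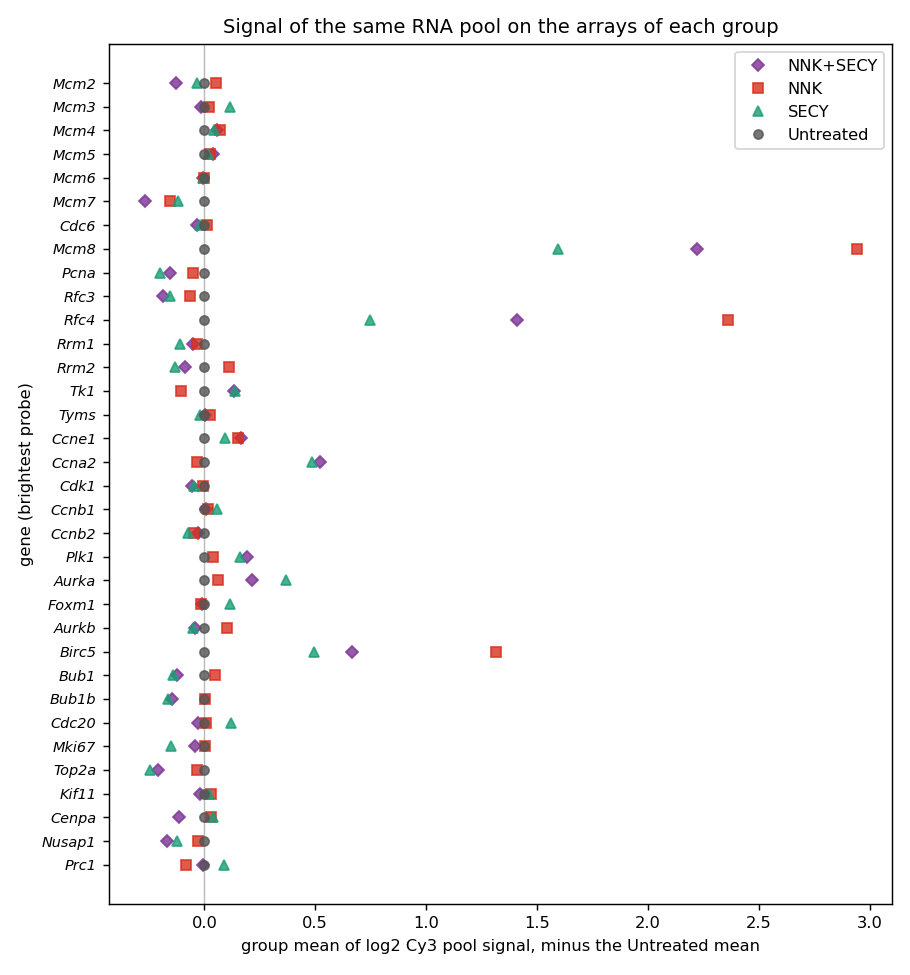
Group mean of the log2 Cy3 pool signal minus the Untreated mean, for the brightest probe of each of the 34 members tested, by group. The NNK mean lies 2.94 above Untreated for Mcm8, 2.36 for Rfc4 and 1.31 for Birc5, and Ccna2 stands higher in both groups on slides 5 to 8.

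NNK+SECY against NNK lungs asked what the diet changed after NNK. Birc5 gave log ratios of 0.15, 0.20, 0.60 and 0.48 on the NNK+SECY arrays, against 1.04, 0.91 and 0.99 on the 3 NNK arrays that kept a value. All 4 NNK+SECY arrays lay below all NNK arrays. The log2 fold change was -0.63 ± 0.13 (limma, adjusted p = 0.0189), and Birc5 was the 1 member of 34 that passed, where 1.75% of genes tested did, 1.44% as lower. The Cy3 pool signal of Birc5 was lower in NNK+SECY than in NNK arrays too, with a log2 difference of -0.65 (limma, adjusted p = 0.0161). The call ended with the scanner software's processed signals (adjusted p = 0.0514), the deposited value table (0.05001) or the flagged spot kept (0.0824), and without NNK 2 (0.106), NNK 4 (0.081), NNK+SECY 1 (0.0738) or NNK+SECY 2 (0.0673), all in limma. The Mcm8 log ratios were 0.07, 0.80, 0.83 and 0.91 on the NNK+SECY arrays, all below the 4 NNK arrays, with a log2 fold change of -0.62 ± 0.15 that missed the threshold (limma, adjusted p = 0.056). Mcm8 and Birc5 were the members without overlap, 2 of 34, beside 8.76% of all genes tested. Probe by probe, 1 of the 4 probes of these genes passed, the Birc5 probe already counted, where 1.56% of probes did. Rfc4 gave 0.13, 0.60, 0.68 and 0.87 on the NNK+SECY arrays, which overlapped the NNK arrays, and a log2 fold change of -0.47 ± 0.14 (limma, adjusted p = 0.159).

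In NNK+SECY against Untreated lungs no member passed, where 1.59% of genes tested did, and 3 members had an unadjusted p under 0.05: Mcm8, Rfc4 and Birc5. That was 8.82% of the members, beside 9.23% of all genes tested. Their log2 fold changes were 0.51 ± 0.15 for Mcm8, 0.48 ± 0.14 for Rfc4 and 0.35 ± 0.12 for Birc5, with limma's adjusted p at 0.175, 0.139 and 0.295. The array NNK+SECY 1 was the low one for Mcm8 and Rfc4, at 0.07 and 0.13. Without it Mcm8 was at 0.70 and Rfc4 at 0.63, and both passed in limma (adjusted p = 0.00945 and 0.0249). Untreated 1 was the high Untreated array for Birc5, and without it Birc5 was at 0.47 and passed (limma, adjusted p = 0.0474). Leaving out the low NNK+SECY array or the high Untreated array raises these values by construction. Each of the 3 genes passed in 1 of 27 alternatives on log ratios. This comparison shares its Untreated arrays with that of NNK alone.

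In NNK+SECY against SECY lungs, which share slides 5 to 8, no member passed, where 0.00941% of genes tested did, and 2 members had an unadjusted p under 0.05, which was 5.88% of the members, beside 6.14% of all genes tested. The SECY arrays gave -0.05, -0.11, 0.30 and -0.02 for Mcm8 and 0.13, -0.05, 0.33 and -0.04 for Rfc4. For both genes NNK+SECY 1 fell among the SECY arrays and the other 3 NNK+SECY arrays lay above them. The log2 fold changes were 0.62 ± 0.15 for Mcm8 and 0.48 ± 0.14 for Rfc4 (limma, adjusted p = 0.603 and 0.763). Within slides 5 to 8, NNK+SECY minus SECY was 0.12, 0.91, 0.52 and 0.93 for Mcm8 and 0.01, 0.66, 0.35 and 0.91 for Rfc4. Birc5, with SECY arrays at 0.25, -0.03, 0.24 and 0.05, differed by 0.23 ± 0.12 (limma, adjusted p = 0.832).

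The interaction, the effect of NNK on the diet minus its effect without the diet, tests whether the responses differed. No member passed, where 0.0047% of genes tested did. It was -0.51 ± 0.22 for Mcm8, -0.47 ± 0.20 for Rfc4 and -0.74 ± 0.18 for Birc5, with unadjusted p of 0.035, 0.0318 and 0.000868 in limma and adjusted p of 1, 1 and 0.808. These 3 were the members with an unadjusted p under 0.05, 8.82% of the members, beside 4.61% of all genes tested.

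In SECY against Untreated lungs no member passed, where 0.277% of genes tested did, and 1 member had an unadjusted p under 0.05, which was 2.94% of the members, beside 8.1% of all genes tested. This was Tk1, thymidine kinase of the salvage pathway. Its log ratios were 0.03, -0.07, 0.21 and -0.02 on the SECY arrays, against 0.16, -0.34, -0.31 and -0.27 on the Untreated arrays. The SECY arrays lay above 3 of the 4 Untreated arrays, and Untreated 1 lay among them. The log2 fold change was 0.23 ± 0.10 (limma, adjusted p = 0.559), and 0.34 ± 0.08 without Untreated 1 (limma, adjusted p = 0.148). The Tk1 arrays of NNK+SECY, at -0.10, -0.15, -0.12 and -0.14, did not overlap those of SECY, as was true of 3.01% of genes tested, with a log2 fold change of -0.17 (limma, adjusted p = 0.852). Mcm8, Rfc4 and Birc5 differed by -0.11, 0.00 and 0.12 between SECY and Untreated lungs. The Cy3 pool signal passed in 8 of the 34 members in this comparison, where 34.4% of genes tested passed. It passed in 9 members in NNK+SECY against Untreated arrays, where 30.5% did, and in 6 in NNK+SECY against NNK arrays, where 19.9% did. Each of these sets arrays of slides 5 to 8 against arrays of slides 1 to 4.

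**Figure D4:**
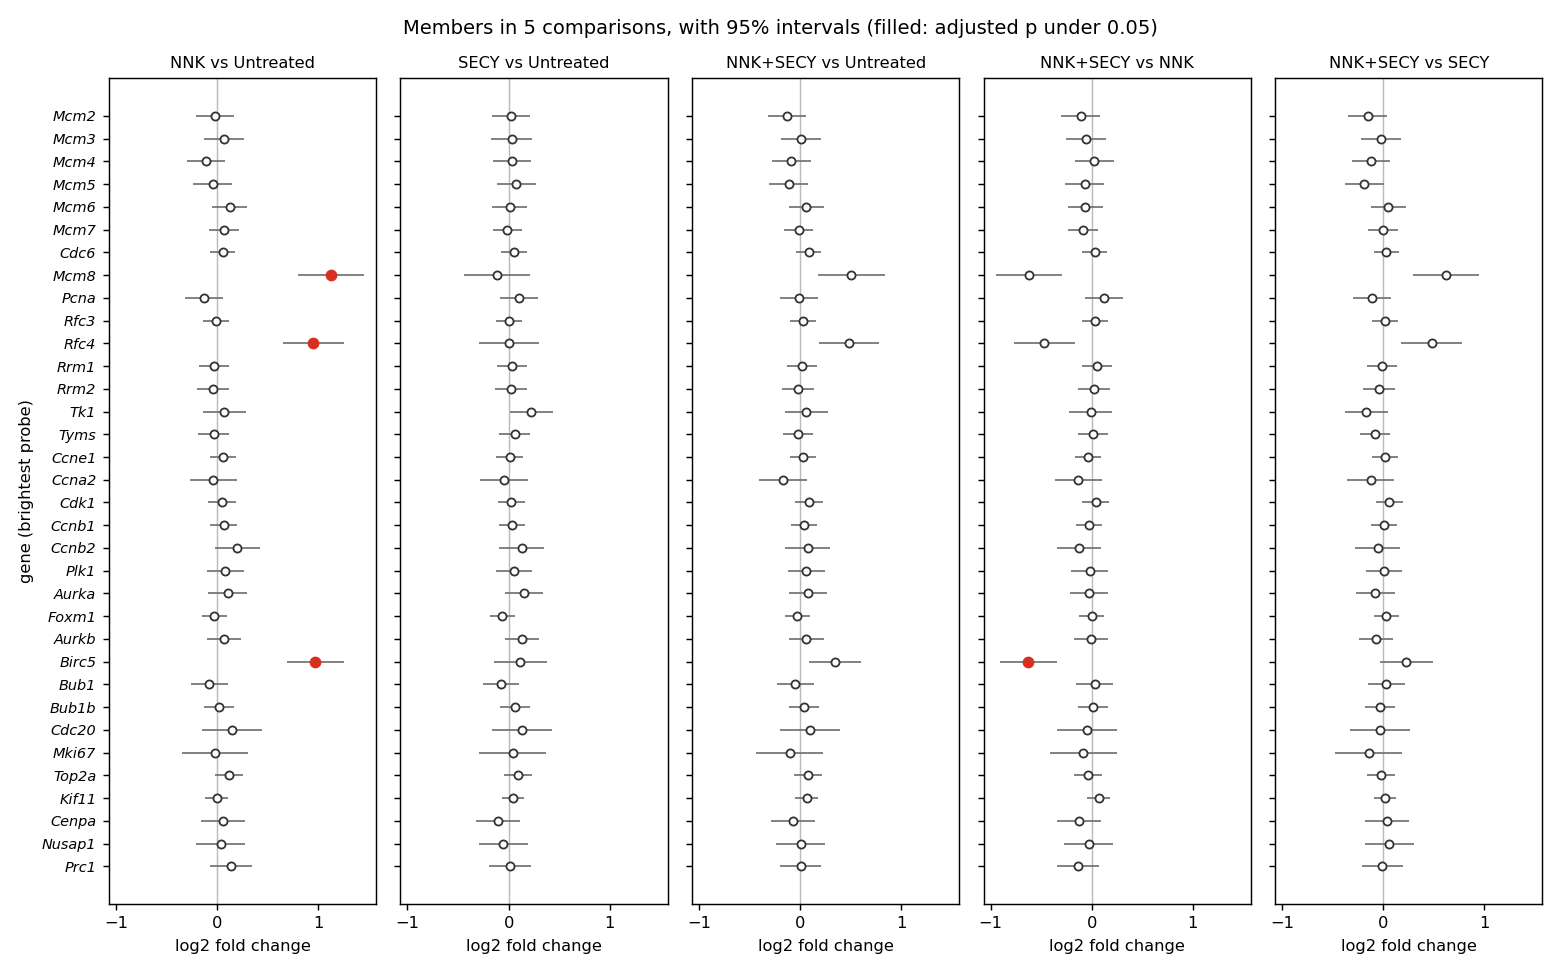
Log2 fold change with its 95% interval for the 34 members tested, in the order of their roles, in each of the 5 pairs of groups (limma, n = 4 mice per group, 3 for Birc5 in NNK). Filled points passed an adjusted p of 0.05: Mcm8, Rfc4 and Birc5 in NNK against Untreated lungs and Birc5 in NNK+SECY against NNK lungs.

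By role, the replicative helicase genes Mcm2 to Mcm7 and Cdc6, which loads them at origins, had log2 fold changes between -0.11 and 0.12 in NNK against Untreated lungs, with a median of 0.06 over 7 genes, and none passed. Mcm5 had the smallest p of this group, in NNK+SECY against SECY lungs. Its log ratios were -0.23, -0.16, -0.09 and -0.03 on the NNK+SECY arrays, against 0.08, -0.22, 0.36 and 0.02 on the SECY arrays, which overlapped. The log2 fold change was -0.19 ± 0.09 (limma, adjusted p = 0.813). Among the clamp and its loader, Pcna, the sliding clamp, had -0.13 in NNK against Untreated lungs and Rfc3, another loader subunit, had -0.01, while Rfc4 had 0.95. The genes of nucleotide synthesis, Rrm1, Rrm2, Tk1 and Tyms, lay between -0.04 and 0.07. The S phase cyclins Ccne1 and Ccna2 were at 0.06 and -0.04. Ccna2 had the fourth largest Cy3 difference, with Cy3 group means of 7.83 in NNK+SECY, 7.28 in NNK, 7.79 in SECY and 7.31 in Untreated arrays.

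The genes of mitotic entry, Cdk1, Ccnb1, Ccnb2, Plk1, Aurka and Foxm1, lay between -0.03 and 0.20 in NNK against Untreated lungs, and none passed. Ccnb2, a partner of the mitotic kinase Cdk1, was the highest of the 31. Its log ratios were 0.25, 0.17, 0.09 and -0.16 on the NNK arrays, against 0.23, -0.20, -0.24 and -0.22 on the Untreated arrays. NNK 4 and Untreated 1 made the groups overlap. The log2 fold change was 0.20 ± 0.10 (limma, adjusted p = 1), and 0.31 ± 0.09 without Untreated 1 (limma, adjusted p = 0.399). In the passenger complex and the checkpoint, Birc5 moved while Aurkb, the kinase of the same complex, had 0.07, Bub1 -0.08, Bub1b 0.02 and Cdc20, which activates the ligase that ends metaphase, 0.15. Mki67, the antigen used to mark dividing cells, had -0.02 (0.16 without Untreated 1), and Top2a, which untangles chromosomes, 0.11 (0.16 without it). The other chromosome and spindle genes, Kif11, Cenpa, Nusap1 and Prc1, lay between 0.00 and 0.14.

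Over the 31 members without Mcm8, Rfc4 and Birc5, none passed in any of the 6 comparisons. The median log2 fold change was 0.05 in NNK against Untreated lungs, where the median of all genes tested was 0.01, with 18 of 31 above 0 (58.1%, against 52.9% of all genes). Their 95% intervals reached from -0.35 to 0.44. The median was 0.03 in SECY against Untreated, 0.02 in NNK+SECY against Untreated, -0.02 in NNK+SECY against NNK and -0.02 in NNK+SECY against SECY lungs. Apart from Tk1 none of the 31 had an unadjusted p under 0.05 in these 5 pairs. Without Untreated 1 none passed either, but the values against Untreated lungs were higher. That array was left out because it was high in these same genes, so its removal raises these values by construction. The counts of genes that follow describe genes on shared arrays, not replicates. The median was then 0.11 in NNK against Untreated lungs, with 27 of 31 above 0 and 6 with an unadjusted p under 0.05, beside a median of 0.01 over all genes, 53.1% above 0 and 5.43% with such a p. In SECY against Untreated lungs it was 0.10, with 29 of 31 above 0 and 7 with such a p, beside 48.4% and 7.78% of all genes. In NNK+SECY against Untreated lungs it was 0.08, with 27 of 31 above 0 and 5 with such a p, beside 50.7% and 9.45% of all genes. All these comparisons share the 3 Untreated arrays that were left.

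The range of array medians over the 31 members was wider within groups than the range of the group means. Their median log ratio was 0.02, -0.04, 0.05 and -0.03 on the NNK+SECY arrays, 0.08, 0.07, 0.03 and -0.11 on the NNK arrays, 0.08, -0.06, 0.09 and -0.02 on the SECY arrays, and 0.19, -0.07, -0.07 and -0.08 on the Untreated arrays. Untreated 1 had 30 of the 31 above 0, while the other 3 Untreated arrays had 6, 9 and 3. Of all genes tested, 51.6% were above 0 on Untreated 1. By role, the medians on Untreated 1 were 0.12 for the helicase genes, 0.22 for nucleotide synthesis and 0.16 for mitotic entry. They were 0.24 for the passenger complex and checkpoint and 0.17 for chromosome and spindle genes. No median was taken for the clamp and loader or the S phase cyclins, which had too few genes. The group means of these medians were 0.00 in NNK+SECY, 0.02 in NNK, 0.03 in SECY and -0.01 in Untreated arrays, with SDs of 0.04, 0.09, 0.08 and 0.13 (n = 4 each). Within slides, NNK minus Untreated had a median over the 31 of -0.08, 0.14, 0.10 and 0.00 on slides 1 to 4, and NNK+SECY minus SECY of -0.06, 0.01, -0.02 and 0.00 on slides 5 to 8.

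**Figure D5:**
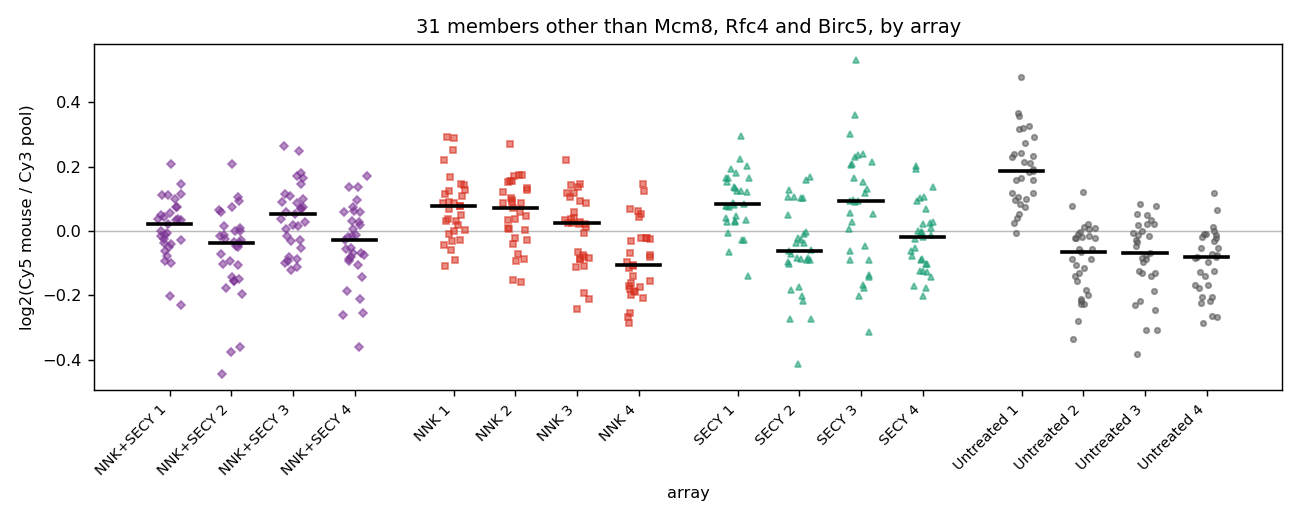
Log2(Cy5/Cy3) of the 31 members other than Mcm8, Rfc4 and Birc5 on each array, 1 point per gene, with a bar at the median of the array. Untreated 1 has a median of 0.19 and 30 of 31 genes above 0, while the medians of the other 15 arrays lie between -0.11 and 0.09.

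A further list of 96 cell cycle and replication genes outside the 35 had 91 tested: 29 of licensing and the fork, 34 of mitosis, 19 cyclins, kinases and E2F factors and 9 inhibitors of the cycle. In NNK against Untreated lungs none of the 91 passed. An unadjusted p under 0.05 was found for 5 (5.49%, beside 5.04% of all genes tested). The median was 0.05 with 72.5% above 0 (52.9% of all genes), and the smallest p was that of Cdc25b, a phosphatase that activates cyclin-dependent kinases, at 0.50 ± 0.11 (limma, adjusted p = 0.0635). The Cy3 signal of Cdc25b was 0.44 higher in NNK than in Untreated arrays. In NNK+SECY against NNK lungs none passed either, 8 had an unadjusted p under 0.05 (8.79%, beside 9.9% of all genes tested), and the smallest p was that of Espl1, the separase that cuts cohesin, at -0.35 ± 0.09 (limma, adjusted p = 0.0541). Only Ccng1, cyclin G1, a target of p53 counted here with the inhibitors, passed in any comparison. It was 1 of 91 in NNK+SECY against Untreated lungs, where 1.59% of all genes tested passed. Its log ratios were 0.70, 0.70, 0.54 and 0.74 on the NNK+SECY arrays, against 0.13, 0.17, -0.15 and 0.16 on the Untreated arrays. The groups did not overlap, and the log2 fold change was 0.59 ± 0.12 (limma, adjusted p = 0.0169), with 0.13 in Cy3. The call ended without Untreated 3 (adjusted p = 0.0676), NNK+SECY 1 (0.0559) or NNK+SECY 4 (0.0685) in limma. Ccng1 was at 0.26 in NNK and 0.33 in SECY against Untreated lungs, neither of which passed. The NNK arrays gave 0.25, 0.38, 0.38 and 0.34, all above the Untreated arrays, a lack of overlap seen in 4.13% of genes tested. The SECY arrays gave 0.52, 0.645, -0.09 and 0.52, with SECY 3 the low one.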

How the data were processed

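Lung RNA of 16 mice was measured on 16 2-colour arrays. Per the file headers, the authors' spot extraction used Feature Extraction 8.1.1.1. Deposited per array were each spot's mean and background intensity per dye on a linear scale, processed intensity, and a log10 ratio of Cy5 over Cy3. The authors' deposited value table holds log2 ratios, which differed from the log10 ratio, converted to log2, by at most 0.005, and each column's median was 0. Here mean signals were corrected by normexp with offset 50 and normalised by loess within arrays (limma 3.58.1, R 4.3.3), with control and flagged spots at weight 0 and flagged spots dropped. Spots of a probe were averaged. The signal of each dye was taken after Aquantile scaling of the loess values. A limma model with 4 group means was fitted over all 16 arrays and all genes tested, with Benjamini-Hochberg adjustment and a threshold of 0.05. The code was tested on simulated data. SE is the model's standard error, and the number of arrays limits precision.

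The members, lists and alternatives were chosen with earlier results of these data known. Members were taken by name, with no threshold on a measured value. Named are every member, every probe of Mcm8, Rfc4 and Birc5, values by array for those that passed and the 6 members with the smallest p over the 5 pairs, and, of the other lists, genes that passed and a few with the smallest p. Promoter sequence and names are RefSeq's (GRCm38.p6), and 30 of 35 members had a window. Alternatives changed background correction, filter, probes, flags, weights, blocks and single arrays.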

Additional observations from a re-analysis of the deposited data

Results flagged for a closer look

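Each of 135 sets of 4 arrays (a member in a group) was examined for an array far from the other 3, and 12 (8.89%) had one. Chance gives about 1 in 20. Of the 12, 5 were in Untreated arrays and all were the high value of Untreated 1: Mcm6 at 0.12, Tk1 at 0.16, Ccnb2 at 0.23, Aurkb at 0.29 and Prc1 at 0.27. The median over the 31 members was far from the others on the same array, at 0.19 against -0.07 for the next. In NNK+SECY arrays, Mcm8 on NNK+SECY 1 was low at 0.074, with the next at 0.80. In NNK arrays, Rrm1 was high on NNK 1 at 0.078, and Tyms at -0.20 and Prc1 at -0.17 were low on NNK 4. In SECY arrays, Mcm6 was high on SECY 1 at 0.046, Pcna was low on SECY 3 at -0.17 and Cenpa was low on SECY 2 at -0.41. The part of single arrays in these values was not tested beyond leaving each out.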

How the results depend on the processing

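In NNK against Untreated lungs 3 members passed under every alternative, arrays left out in turn included, except when only genes with a steady Cy3 signal were kept, an alternative added after seeing the data, which left 0. In NNK+SECY against NNK lungs 1 member passed. There were 0 with the processed signals, the deposited value table, flagged spots kept or only genes with a steady Cy3 signal, and 2 with the mean of all probes, array weights, the replicate block or Cy5 alone. Leaving out single arrays gave 0 to 2. Probe by probe, the processed signals gave 0 in place of 1. In SECY against Untreated and in NNK+SECY against Untreated lungs Cy5 alone gave 3 in place of 0, and leaving out arrays gave 0 to 2 in the second. The cause was not tested. With the Cy3 processed signal centred on its median, 17 members passed in Cy3 in each of SECY against Untreated, NNK+SECY against Untreated and NNK+SECY against NNK arrays, in place of 8, 9 and 6. Ccng1 missed the threshold with median centring (limma, adjusted p = 0.0586). The other 31 members reached 0.36 (Top2a, processed signals) and -0.21 (Pcna, median centring) in NNK against Untreated lungs. No value of a called gene changed sign. None of the other 32 members, Ccne2 included without the filter, passed under an alternative on log ratios. Deviations from the group means correlated at -0.013 to 0.46 between arrays of the same number in NNK against Untreated lungs, which share slides, and at -0.09 to 0.50 in SECY against Untreated lungs, which do not. Arrays of different numbers correlated at -0.46 to 0.17 and -0.51 to 0.32 in these comparisons. In neither was every pair above 0.1, so the numbers were not taken to pair the mice. The replicate block kept the 3 calls of that comparison, with Birc5 at 1.00.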
